A study of Mus musculus with 16 samples.

Results

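The Serpin family was described across 16 libraries of mouse RNA that had been enriched with capture probes. Its members were the 61 protein-coding GENCODE M21 genes (GRCm38) whose symbols begin with Serpin, out of 22028 protein-coding genes in that annotation. A transcript of the deposited merged assembly was assigned to the gene with which it shared the most exonic bases on the same strand, and the values of a gene's transcripts were summed in each library. All 61 genes had an assigned transcript, with 176 transcripts in all and 0 ties. Clade a held 24 of the genes, clade b 26, clade e 3, clades f and i 2 each, and clades c, d, g and h 1 each.

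The RNA came from adult mice of the C57BL/6J strain, with no treatment or genetic change given in the labels. Whole brain, cerebellum, cortex and olfactory bulb formed the brain group, and heart, kidney, liver and a tissue labelled testes formed the nonbrain group. Each tissue had 1 library captured with a design against long noncoding RNA loci (the lncRNA design) and 1 captured with a design against annotated splice junctions (the splice junction design). Brain RNA was extracted with TRIzol and nonbrain RNA with RNeasy columns, pieces of a nonbrain organ were combined, the brain and the nonbrain libraries were hybridized in separate pools, and the number of amplification cycles after capture differed, so group, extraction, pool and cycle number cannot be told apart. The unit of a comparison between brain and nonbrain tissues was the tissue (n = 4 in each group), the brain regions are parts of the whole brain, and the p-values below describe the spread between tissues and not between mice.

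Serpins are proteins of a common fold that inhibit serine proteases, and some cysteine proteases, by a suicide mechanism. An exposed loop near the carboxyl end, the reactive centre loop, is cut by the protease, inserts into the body of the serpin and drags the trapped enzyme along. The liver secretes many of them into the blood, where they restrain coagulation, fibrinolysis, complement and neutrophil elastase. Clade b members stay inside cells, often in epithelia and leukocytes, and neuroserpin (Serpini1) is made by neurons. Some members, such as the hormone carriers Serpina6 and Serpina7 and the collagen chaperone Serpinh1, inhibit no protease.

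The libraries held 8930235 to 43889288 fragments, of which 7.81 to 45.6% were ERCC spike-in RNA. A fragment is a sequenced piece of RNA, recovered here from the deposited normalized values, which are whole multiples of the worth of 1 fragment in each library once the transcripts of a gene model are summed. A count of 0 allows up to 3 fragments by counting error alone. The count can also be a failed estimate of the quantification, since the heart muscle gene Myh6 was listed at 0 in the heart library and the kidney gene Lrp2 at 0 in the kidney library of the splice junction design.

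Marker genes did not bear out the label testes. In the splice junction design 0 of 8 germ cell genes were highest in that library, and the spermatid genes Tnp1, Tnp2 and Prm2 had 0 fragments. Of 11 genes of stratified (squamous) epithelium, 9 were highest there, with 28663 fragments of Krt5, 96634 of Krt14, 26437 of Trp63 and 49096 of Dsg3. Of the genes of its mature layers, Krt10 had 1328 fragments there and was highest in that library, while Krt1, Krt4, Krt13 and Lor had 3 to 11, so the tissue is named by its label only. Of the markers of other tissues, all 8 hepatocyte genes were highest in liver and the 6 neuronal genes in cerebellum or cortex. Of 3 heart muscle genes 2 were highest in heart and Myh6 in liver, and of 3 kidney tubule genes 2 were highest in kidney and Lrp2 in the library labelled testes.

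Most members lie in clusters of neighbouring copies. On chromosome 12, 23 clade a genes lie between positions 103614786 and 104414329, while Serpina7 lies on chromosome X. Clade b is split between chromosome 1 (11 genes, 106861173 to 107610484) and chromosome 13 (15 genes, 32842092 to 34002794). Neighbouring copies can be so alike that a sequenced read fits more than 1 gene. Among the Serpina1 copies, which encode alpha-1-antitrypsin, the inhibitor of neutrophil elastase, coding sequences were 96.3 to 98.5% identical in pairs. Of the stretches of read length in the reference transcript, 57.9% in Serpina1c, 49.5% in Serpina1a, 28.8% in Serpina1d, 26.1% in Serpina1b and 17.8% in Serpina1e also occurred in transcripts of another gene, so the values of single copies are uncertain. The share was at most 5.84% for Serpina3k, Serpina3m and Serpina3n and 0 for most of the other expressed members, such as Serpinb5, Serpinc1 and Serpinf2.

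The 5 copies of Serpina1 differ most in the window that encodes the reactive centre loop. It is shown because a read from it, among other stretches, can tell the copies apart, and because the protein meets its protease there. Of 1311 coding bases of Serpina1a, 155 varied among the copies or were absent from some of them. In the window of 60 bases with most variation, 18 varied. The windows cover bases 1171 to 1230 of the coding sequence of Serpina1a and bases 1102 to 1161 of the other 4 coding sequences, all read from GENCODE M21 transcripts on the minus strand of chromosome 12, with the varying bases in capitals.
Serpina1a: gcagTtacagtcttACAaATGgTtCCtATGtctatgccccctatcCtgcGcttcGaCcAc
Serpina1b: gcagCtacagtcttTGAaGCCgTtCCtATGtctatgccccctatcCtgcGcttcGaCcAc
Serpina1c: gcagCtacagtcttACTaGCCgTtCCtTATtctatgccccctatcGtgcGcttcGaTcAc
Serpina1d: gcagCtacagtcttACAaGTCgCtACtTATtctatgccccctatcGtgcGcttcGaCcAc
Serpina1e: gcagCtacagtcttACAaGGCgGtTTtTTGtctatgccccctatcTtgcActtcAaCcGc
Serpina1e differed from the other copies at 10 to 12 of the 60 bases, and Serpina1c differed from Serpina1d at 5.

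Liver gave the largest share of its fragments to the family. Members took 1.07% of liver fragments outside the spike-ins in the splice junction design and 1.24% in the lncRNA design. In the other tissues they took 0.0436 to 0.191% in the splice junction design and 0.00292 to 0.0161% in the lncRNA design. In the splice junction design 44 members reached a Cuffnorm value of 10 in their highest library, and 23 of these 44 were highest in liver, 5 in heart, 1 in kidney, 7 in the tissue labelled testes and 8 in a brain tissue. Of the 23, 16 belonged to clade a. The same count was not made over all genes, and a member can reach the minimum value only through the tissue where it is high. These counts thus describe the 44 members alone. The Cuffnorm value is the authors' estimate of fragments divided by a factor per library, and it is the scale used here between libraries.

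**Figure D1:**
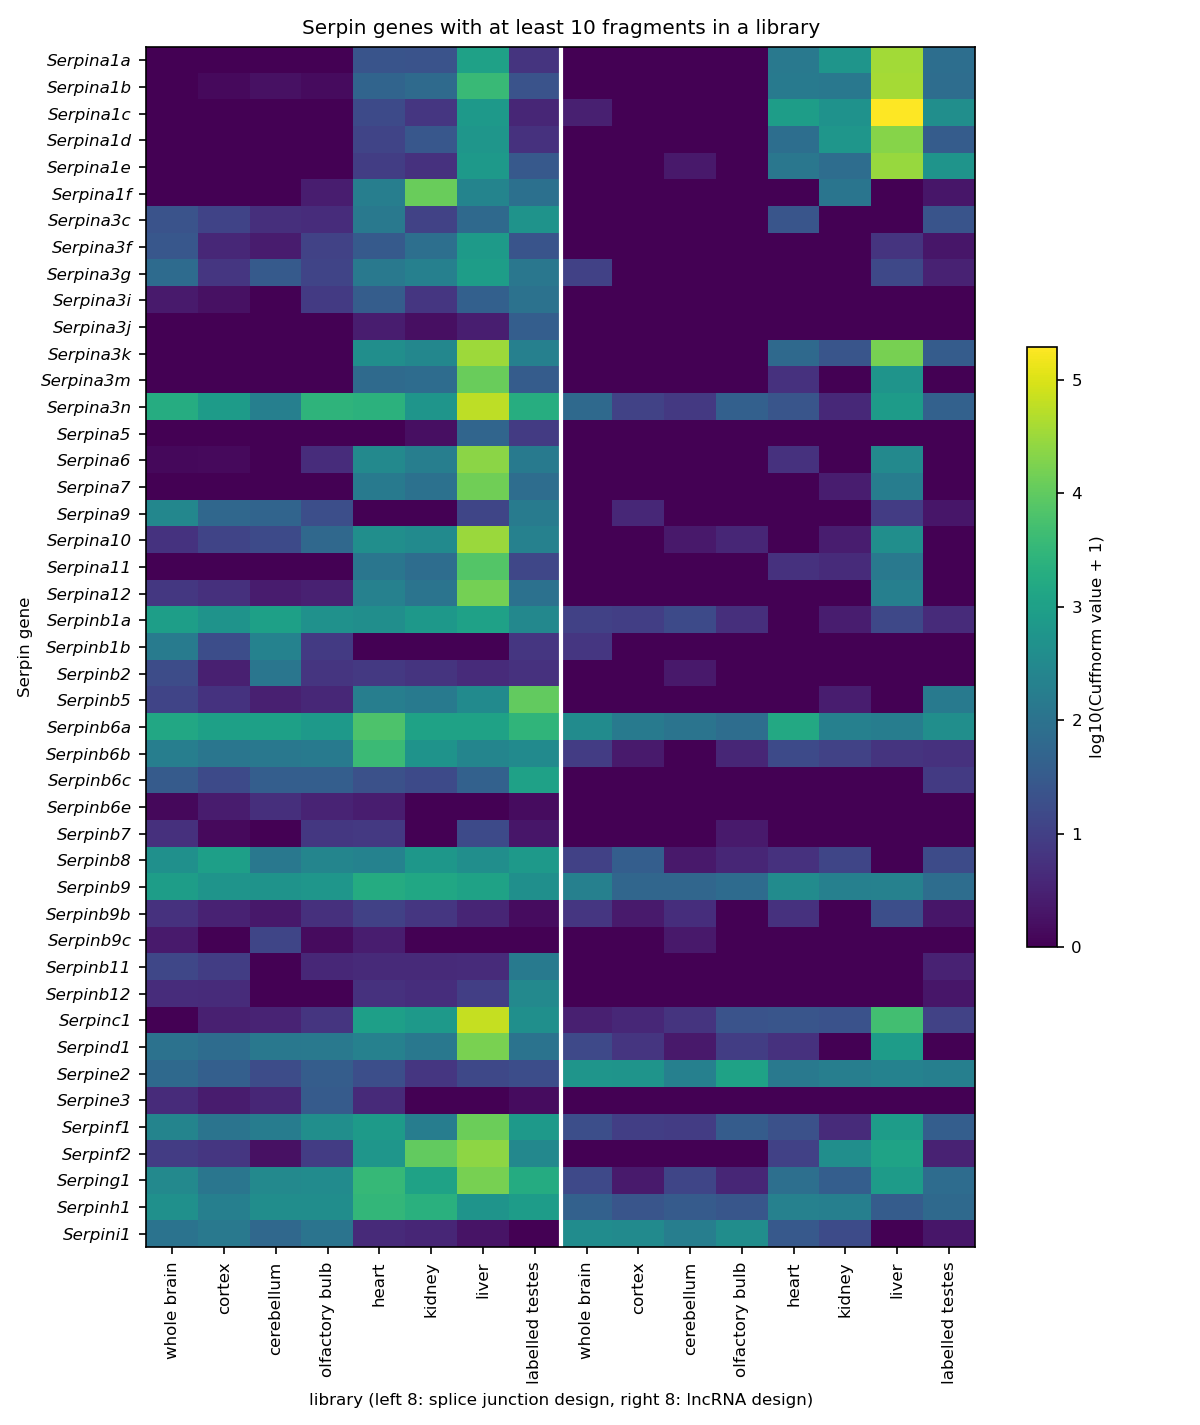
Heat map of 45 of the 46 Serpin genes with at least 10 fragments in a library (rows) across the 16 libraries (columns, splice junction design on the left, lncRNA design on the right), coloured by log10(Cuffnorm value + 1). The liver columns hold the highest values of most clade a genes in the splice junction design, Serpinb5 stands out in the library labelled testes, and Serpina1a to Serpina1e, Serpine2 and Serpini1 are brighter in the lncRNA design.

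Several liver members inhibit coagulation. Serpinc1 encodes antithrombin, which inhibits thrombin and factor Xa. It had 75545 fragments in liver, 1037 in kidney, 813 in the library labelled testes and 600 in heart, against 0 in whole brain, 6 in cerebellum, 5 in cortex and 14 in olfactory bulb (splice junction design). In the lncRNA design it had 1931 fragments in liver and 1 to 16 elsewhere. Liver was thus the highest in both designs, and heart stood at 1.46% of the liver value in the splice junction design. Serpind1 encodes heparin cofactor II, a second inhibitor of thrombin. It had 19831 fragments in liver, 129 to 198 in the other nonbrain libraries and 201 to 347 in the brain libraries, and in Cuffnorm value the brain libraries (74.7 to 139) overlapped the other nonbrain libraries (103 to 207). Serpina10, the inhibitor of factor Xa bound to protein Z, had 35443 fragments in liver and 17 to 519 elsewhere.

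Serpinf2 encodes alpha-2-antiplasmin, the chief inhibitor of plasmin. It had 28423 fragments in liver and 15617 in kidney, against 553 in the library labelled testes, 372 in heart and 2 to 26 in the brain libraries. Kidney thus stood at 42.2% of the liver value, and at 36.5% in the lncRNA design, where liver had 446 fragments and kidney 248. Serping1 encodes the C1 inhibitor of the complement and contact systems. It had 18562 fragments in liver, 3329 in the library labelled testes, 2205 in heart, 1680 in kidney and 315 to 1082 in the brain libraries, and was thus found in every tissue.

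Clade a members of liver comprised protease inhibitors and carriers. Serpina3k, a copy of the antichymotrypsin family, had 38130 fragments in liver, 413 in kidney, 377 in the library labelled testes and 261 in heart, and 0 in all 4 brain libraries of the splice junction design. Its lncRNA design values were 6396 in liver, 30 in the library labelled testes, 14.2 in kidney, 13 in heart and 0 in brain. Both designs thus gave the same order of liver above the other nonbrain tissues above brain. Serpina6, the carrier of glucocorticoids, had 27525 fragments in liver, 193 to 272 in the other nonbrain libraries and 0 to 9 in brain. Serpina7, the carrier of thyroid hormone, had 15872 in liver, 88 to 142 in the other nonbrain libraries and 0 in brain. Serpina12, an adipokine also known as vaspin, had 17507, and Serpina11 had 8832. Compared per length, as fragments divided by transcript length and by the fragments of the library outside the spike-ins (FPKM), the 3 highest members of liver in the splice junction design were Serpina3k (658 FPKM), Serpina3n (554) and Serpinc1 (537), where 95.1% of the fragments of Serpina3n belonged to a transcript that also holds exons of Serpina3k and Serpina3m.

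Hepatocyte markers were present in the other nonbrain libraries at shares of liver that many members shared. In the splice junction design the genes that mark the cell type (Alb, Apoa1, Apoa2, Fgb, Cps1, Hpx, Apob and Tat) stood at 1.04 to 1.61% of their liver value in heart, at 0.639 to 3.01% in kidney and at 0.544 to 0.791% in the library labelled testes. In the brain libraries the same 8 genes stood at 0 to 0.0268%. Their shares in the lncRNA design were 0.143 to 0.538% in heart, 0 to 2.72% in kidney and 0.127 to 0.382% in the library labelled testes. Of the 21 members highest in liver with at least 100 fragments there, 11 of 21 were at or below the highest of these markers in heart, 15 in kidney and 12 in the library labelled testes, with medians of 1.52%, 1.06% and 0.660% of the liver value, and the other 10, 6 and 9 were above every marker. The same held for markers of other organs: Actc1 of heart stood at 0.314 to 0.812% of its heart value in the other nonbrain libraries and at most at 0.00194% in brain, and Umod of kidney at 0.901 to 2.15% of its kidney value and at 0 in brain. All 4 nonbrain libraries of a design shared a hybridization pool. The part of this share in the values of the members was not tested.

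**Figure D2:**
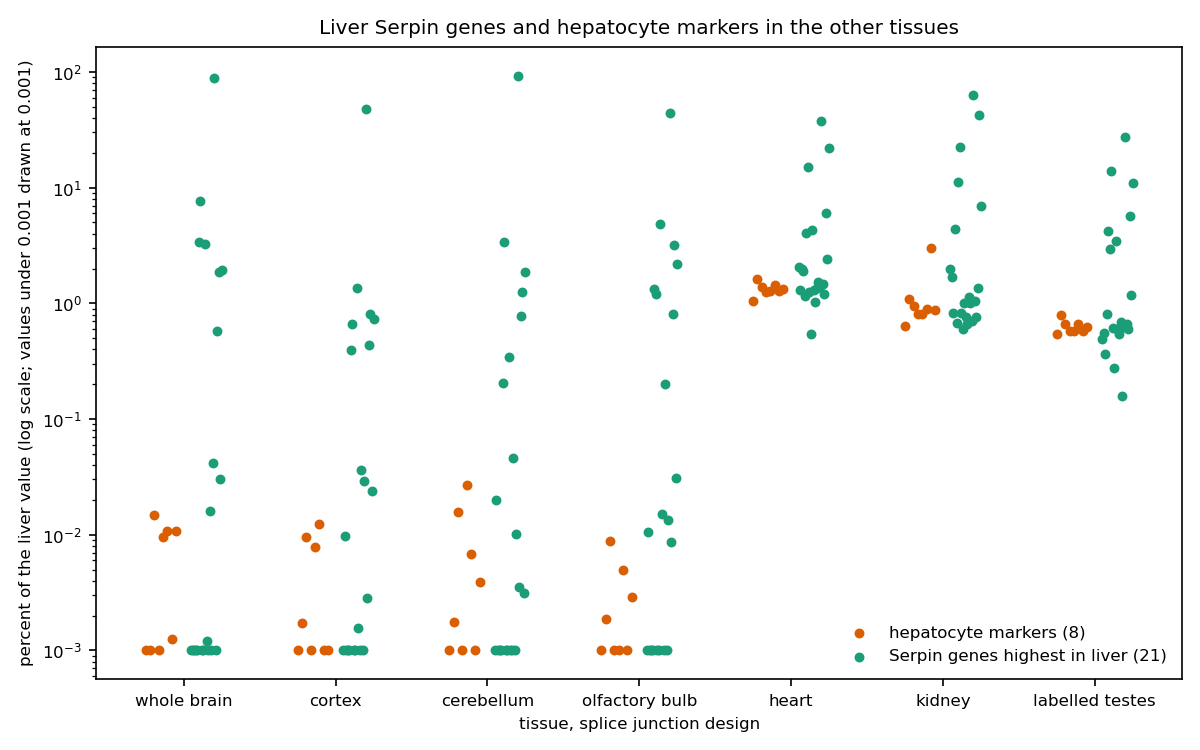
Value in each of the 7 other tissues as a percentage of the liver value (log scale, splice junction design) for 8 hepatocyte markers and for the 21 Serpin genes highest in liver with at least 100 liver fragments. In heart, kidney and the tissue labelled testes many Serpin genes sit beside the markers, near 1%, whereas Serpinb1a (27.4 to 62.9%), Serping1 (6.95 to 21.9%) and, in kidney, Serpinf2 (42.2%) sit far above them.

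Members well above that share included Serping1 (21.9% of the liver value in heart, 11.0% in the library labelled testes and 6.95% in kidney), Serpinf2 in kidney (42.2%), Serpinb1a (27.4 to 62.9%) and Serpina3g (13.9 to 22.3%). Serpinb1a counted as highest in liver by a narrow margin, at 1075 Cuffnorm units against 998 in cerebellum (splice junction design). In the lncRNA design, with 0 to 11 fragments in a library, it was highest in cerebellum. Serpinf1, which encodes pigment epithelium-derived factor, an inhibitor of vessel growth, stood at 6.03% in heart, 5.69% in the library labelled testes and 1.34% in kidney. It was also present in brain, where it had 839 fragments in whole brain, 425 in cerebellum, 284 in cortex and 1025 in olfactory bulb against 14868 in liver. In bulk tissue, fewer cells of a type and less RNA per cell cannot be told apart.

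Kidney had a member of its own. Serpina1f, a clade a gene at 103688044 to 103695529 on chromosome 12 beside the Serpina1 copies, had 18230 fragments in kidney, 281 in liver, 164 in the library labelled testes, 113 in heart, 4 in olfactory bulb and 0 in the other brain libraries of the splice junction design. In the lncRNA design it had 68 in kidney, 1 in the library labelled testes and 0 elsewhere. In Cuffnorm value kidney stood at 4984% of liver. Although its name groups it with alpha-1-antitrypsin, 0% of its stretches of read length occurred in another gene. Together with Serpinf2 (242 FPKM), Serpina1f (209 FPKM) was at the top of the family in kidney in the splice junction design, followed by Serpinh1 (67.4 FPKM).

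Heart shared its leading member with whole brain, cerebellum and cortex in the splice junction design. Serpinb6a, an intracellular inhibitor of trypsin-like proteases and cathepsin G, had 4130 fragments in heart, 5319 in the library labelled testes, 5140 in whole brain, 2701 in cortex, 2626 in cerebellum, 1751 in olfactory bulb, 1641 in kidney and 1270 in liver. In that design it was the highest member per length in heart (239 FPKM), whole brain (111 FPKM), cortex (70.8 FPKM) and cerebellum (68.9 FPKM). All 16 libraries held at least 55 fragments of it. Its copy Serpinb6b was higher in heart (2501 fragments) than in the 7 other libraries of the splice junction design (292 to 765). Serpinh1, the collagen chaperone HSP47 of the endoplasmic reticulum, had 2033 fragments in heart and 3421 in kidney, 510 to 1594 in the brain libraries and 630 in liver. In Cuffnorm value heart (3261) exceeded kidney (2287).

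Among clade b members, Serpinb5 marked the library labelled testes. Serpinb5 encodes maspin, a serpin of epithelial cells that inhibits no known protease. It lies at 106861173 to 106883348 on chromosome 1 and had 19846 fragments in that library, against 390 in liver, 213 in kidney, 113 in heart and 5 to 39.6 in the brain libraries. In the lncRNA design the library labelled testes had 123, kidney 1 and the 6 other tissues 0. At 685 FPKM it made up 52.0% of the summed per-length level of the family in that library, and 63.3% of the fragments of clade b there. The values of Serpinb5 in liver, kidney and heart, 3.21%, 1.35% and 1.71% of that in the library labelled testes, were near the low end of 6 epithelial genes that were highest in the same library, from Dsg3 (3.21, 1.17 and 1.61%) and Krt5 (3.96, 2.03 and 2.41%) to Perp (11.4, 5.65 and 12.03%) and Krt10 (6.64, 22.5 and 9.52%).

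Other clade b members followed Serpinb5 at lower levels. Serpinb6c had 2008 fragments in the library labelled testes and 12 to 113 in the 7 other libraries of the splice junction design. Serpinb12 had 572 there, 496 of them in a transcript that begins in Serpinb5, and 0 to 12.4 elsewhere, and Serpinb11 had 281 there and 0 to 42 elsewhere. These 3 were highest in the same library as Krt5. By contrast the squamous cell carcinoma antigens Serpinb3a, Serpinb3b, Serpinb3c and Serpinb3d had at most 2 fragments in any library, Serpinb13 had 0, and Serpinb7 had 2 in the library labelled testes and at most 17 in another. Clade a was also represented there by Serpina3c, with 964 fragments against 9 to 85 elsewhere. Of the brain libraries, whole brain held 42 fragments of Serpinb11, cortex 22, olfactory bulb 7 and cerebellum 0.

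In brain, Serpini1 separated the groups in both designs. Neuroserpin inhibits tissue plasminogen activator at synapses, and its gene lies at 75557547 to 75643495 on chromosome 3. In the splice junction design it had 362 fragments in whole brain, 361 in cortex, 271 in olfactory bulb and 157 in cerebellum, against 4 in kidney, 2 in heart, 1 in liver and 0 in the library labelled testes. In the lncRNA design it had 281 in olfactory bulb, 242 in cortex, 189 in whole brain and 137 in cerebellum, against 9 in kidney, 6 in heart, 1 in the library labelled testes and 0 in liver. The groups did not overlap in either design. Per length it had 1.63 to 3.63 FPKM in the brain libraries of the splice junction design. Serpinb6a (55.2 to 111 FPKM) and Serpinb1a (up to 51.3 FPKM) were above it in each of them. In the lncRNA design Serpini1 (at least 2.42 FPKM) was above Serpinb1a (at most 0.358 FPKM) in every brain library. It was also above Serpinb6a in olfactory bulb (4.127 against 2.699 FPKM), but below it in whole brain, cerebellum and cortex. The order of these genes thus differed between designs, and their order in the tissue was not tested. Serpini2, on the same chromosome, had at most 4 fragments in a library.

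Further members were higher in some brain regions than in others. Serpina3n, an inhibitor known from reactive astrocytes and from the acute phase in liver, had 6928 fragments in olfactory bulb, 6414 in whole brain, 511 in cerebellum and 2107 in cortex. It was the highest member per length in olfactory bulb in the splice junction design (142 FPKM). Serpinb1b had 586 fragments in cerebellum, 552 in whole brain, 46 in cortex and 17 in olfactory bulb, 11 in the library labelled testes and 0 in heart, kidney and liver. Its copy Serpinb1a, an inhibitor of neutrophil proteases, had 251 to 3266 fragments in all 8 libraries, and their coding sequences were 90.7% identical with 0% of stretches of read length in common. Serpinb2 had 308 fragments in cerebellum and 4 to 56 elsewhere, Serpina9 had 967 in whole brain, 44 to 153 in the brain regions and 296 in the library labelled testes, and Serpine3 had 81 in olfactory bulb and 0 to 12 elsewhere. These regional differences rest on 1 library per region and design, with no replicate.

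Serpine2 encodes protease nexin 1, a thrombin inhibitor of glia and neurons, at 79794197 to 79861180 on chromosome 1. In the lncRNA design it had 825 fragments in olfactory bulb, 387 in cortex, 288 in whole brain and 154 in cerebellum, against 171 in the library labelled testes, 108 in kidney, 86 in liver and 29 in heart. In the splice junction design it had 214 in whole brain, 104 in cortex, 87 in olfactory bulb and 42 in cerebellum, against 31, 9, 15 and 11 in the same 4 nonbrain libraries. On the Cuffnorm scale of the splice junction design the brain range of 16.1 to 61.9 overlapped the nonbrain range of 6.02 to 17.6. In the olfactory bulb library of the lncRNA design 802 of the 825 fragments were given to a transcript of 7 exons and 5092 bases, while Serpine2-201 received 10.4. Each intron of the former is in GENCODE for Serpine2, but no GENCODE transcript has exactly that chain.

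Brain and nonbrain tissues were compared on log2(value + 1), averaged over both designs, with limma across all 19356 genes whose mean value was at least 10. Among all genes 21.5% were higher in brain and 11.6% lower at an adjusted p under 0.05, with a median log2 fold change of 0.17. Of the 61 Serpin genes, 39 passed the filter. Of these 39, 3 were higher in brain, 17 were lower and 19 did not pass the threshold, with a median of -2.21. The filter admits genes that are high in any of the tissues, so these counts describe the 39 genes and not the family. By clade, 12 of 19 tested genes of clade a were lower in brain and 0 higher, against 1 lower and 1 higher of 11 in clade b.

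The 3 genes higher in brain were Serpini1 (log2 fold change 5.59 ± 0.75 SE, adjusted p = 0.000722, limma), Serpinb1b (2.79 ± 0.79, adjusted p = 0.0272) and Serpine2 (1.45 ± 0.47, adjusted p = 0.0423). Serpini1 kept its call under all 16 alternatives. Serpine2 lost it under 10 of 16, including each design alone, and Serpinb1b under 7 of 16, with adjusted p up to 0.146 and 0.48. Of the 3, Serpini1 was the one whose 4 brain values lay above its 4 nonbrain values in each design. Serpina9 (1.33 ± 1.04, adjusted p = 0.35) and Serpinb1a (0.88 ± 0.59, adjusted p = 0.273) did not pass the threshold.

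The genes lower in brain were led by the liver members. The log2 fold changes were -8.66 ± 1.66 for Serpina3k (adjusted p = 0.00483, limma), -7.77 ± 1.59 for Serpina1b, -7.70 ± 1.62 for Serpina1c, -7.44 ± 1.54 for Serpinf2 and -7.44 ± 1.51 for Serpina1a. Serpina1e, Serpina1d, Serpinc1, Serpina6 and Serpina3m followed, between -7.01 and -5.33. For 6 of the 17 (Serpina1a, Serpina1d, Serpina3k, Serpina3m, Serpina7 and Serpina11) every brain library was at 0, so the fitted value depends on the pseudocount. Serpina1b, Serpina1c, Serpina1e and Serpina1f had at most 4 fragments in any brain library, so their fitted values depend on it too. Over the 16 alternatives Serpina1b ranged from -8.95 to -4.79 and Serpina1c from -10.86 to -4.54. For the 6 genes at 0, a floor of 3 fragments in each brain library gave bounds from -3.44 for Serpina11 to -6.90 for Serpina3k. All these bounds lie below the median of the 39, which therefore stayed at -2.21. The other genes were given no floor.

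All 17 genes stayed lower in brain when the liver libraries were left out, and Serpina12, Serpinb6b and Serpinh1 then joined them. For Serpina3k the log2 fold change was -4.65 without joining transcripts, which leaves out its annotated form with the shared first exon, and -6.71 ± 0.37 without liver, and for Serpina7 -3.56 ± 0.35. These values rest on heart, kidney and the library labelled testes, where hepatocyte markers stood at the shares of liver given above, and the part of those shares in the calls was not tested. Serping1 (-3.95 ± 0.88, adjusted p = 0.00986, limma) was called under all 16 alternatives, and its value in heart, at 21.9% of liver, lay above every hepatocyte marker. Serpinb5 was lower in brain (-4.41 ± 1.33, adjusted p = 0.0336) and stayed so without the libraries labelled testes, but lost its call under 6 of 16 alternatives. Without those libraries the fit rests on liver, kidney and heart, where Serpinb5 stood at 3.21, 1.35 and 1.71% of the library labelled testes (splice junction design). These shares were near the low end of the epithelial genes given above, and their part in the call was not tested. Serpina3m lost its call under 9 of 16, among them the fit without joining transcripts. Serpind1 (-1.20 ± 1.71, adjusted p = 0.613), Serpina3n (-1.46 ± 1.42, adjusted p = 0.455) and Serpinf1 (-1.91 ± 1.28, adjusted p = 0.278) did not pass the threshold. Without liver their log2 fold changes were 0.77 ± 0.55, -0.09 ± 0.98 and -0.58 ± 0.75, and Serpina3n had -0.12 ± 1.48 without joining transcripts.

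**Figure D3:**
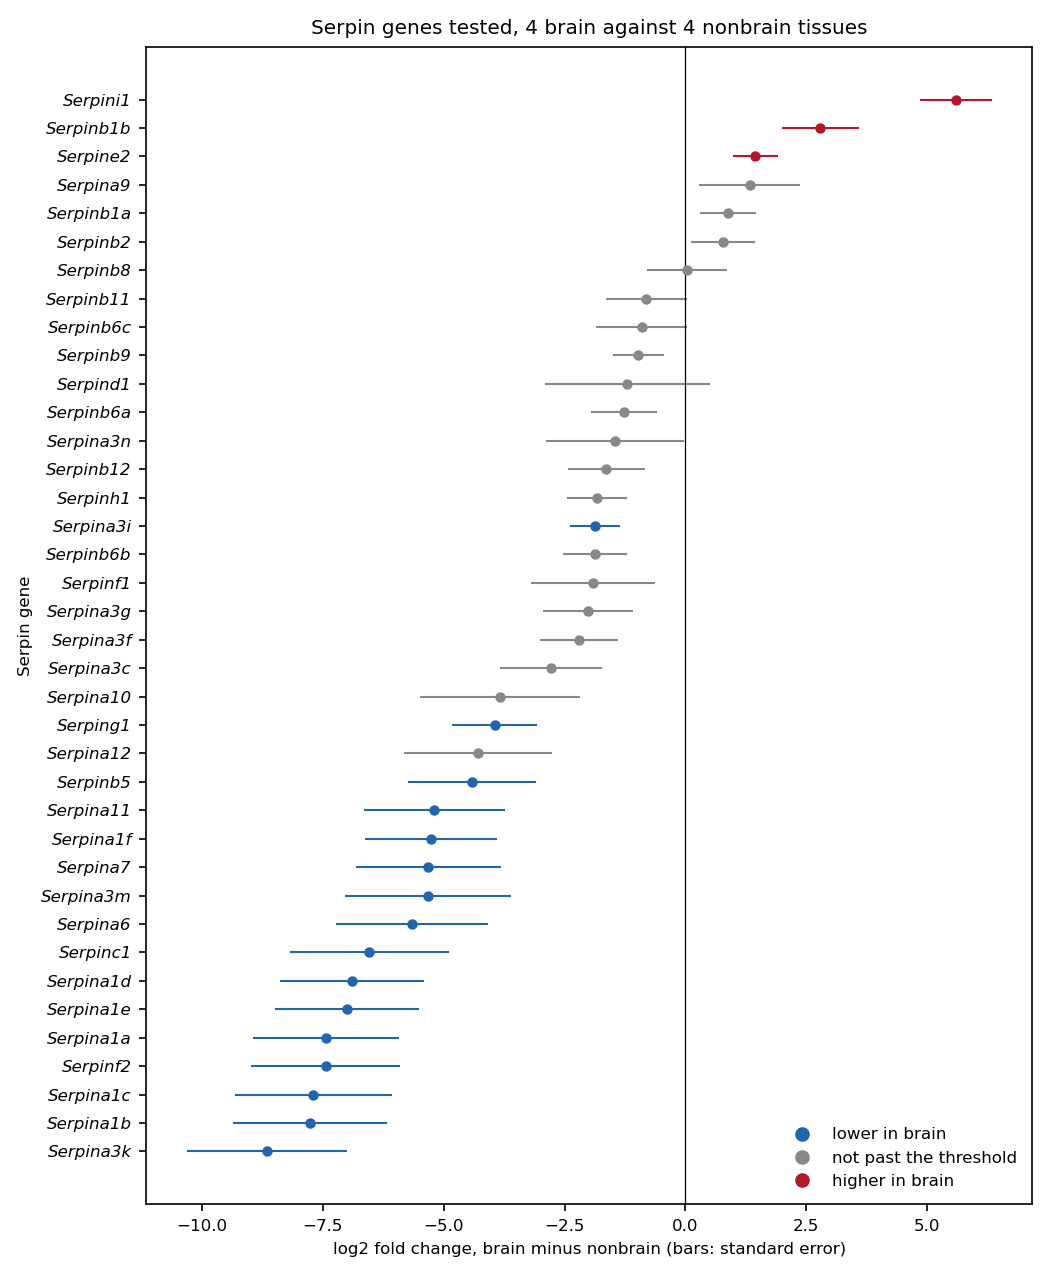
Log2 fold change of brain minus nonbrain tissues with its standard error (bars) for 38 of the 39 Serpin genes tested with limma (4 against 4 tissues, log2(value + 1) averaged over both designs). Blue points (16) are lower in brain, red points (3) higher, and grey points (19) did not pass an adjusted p of 0.05, with Serpina3k at -8.66 and Serpini1 at 5.59 as the ends.

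Proteases and receptors known to meet serpins were examined in the same fit. Of 50 such genes 41 were tested, of which 1 was higher in brain and 18 lower, with a median log2 fold change of -2.83, against the shares of 21.5% and 11.6% among all genes. The receptor Lrp8, which binds reelin and lipoproteins, was higher in brain (5.16 ± 0.44, adjusted p = 6.47e-05, limma), with 19.7 to 62.8 Cuffnorm units in the brain libraries of the splice junction design and 0 to 3.21 in the nonbrain ones. Among the genes lower in brain were the liver zymogens prothrombin (F2, -7.49 ± 1.63) and plasminogen (Plg, -6.96 ± 1.72). The complement protease C1s1 (-6.15 ± 0.87) and the membrane protease hepsin (Hpn, -6.01 ± 1.55) were lower as well. The inhibitors of thrombin, plasmin and C1s, namely Serpinc1, Serpinf2 and Serping1, were lower too. In the splice junction design F2 had 137700 Cuffnorm units in liver and 990 to 2108 in the other nonbrain libraries. Plg had 201200 in liver and 1259 to 2579 in the same libraries. Hepatocyte markers were also present there, and the part of their shares in these calls was not tested. Kallikrein 1 (Klk1, -7.32 ± 1.43) was highest in kidney, at 78450 Cuffnorm units, and protein C (Proc) had the largest difference, -11.21 ± 1.54. The plasminogen activators did not pass the threshold, with 0.99 ± 0.79 for Plat, the target of neuroserpin (adjusted p = 0.357), and -2.99 ± 1.33 for Plau (adjusted p = 0.115).

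The merged assembly joined paralogs of a cluster. Intron chains known to GENCODE were found in 119 of the 176 transcripts, which held 78.7% of the family's fragments, 56 transcripts with another chain held 21.2%, and 1 had a single exon. Transcripts that overlapped exons of at least 2 members numbered 10 and touched 11 genes, 8 of the 10 had at least 10 fragments in a library, and no member transcript overlapped exons of a protein-coding gene outside the family. A pair of them, the annotated forms of Serpina3k and Serpina3m, share a first exon of 60 bases in GENCODE, and another pair (Serpinb3b and Serpinb3c) shares 35 bases. The others pass from gene to gene. The bases on either side of the junctions of 5 of these 6 are shown because they mark where the transcripts pass from gene to gene.

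The joins are printed with 15 bases of the upstream gene in lower case and 15 of the downstream gene in capitals, read from GENCODE exons on the transcribed strand.
Serpinb5 to Serpinb12: ttcagaatcagcaagACAGTAACCAGTTTT
Serpina3k to Serpina3m: tgacccccaggacacATTTGAGTCTGAGTT
Serpina3m to Serpina3n: tcatctctcacacagACTGCAGAACACAGA
Serpina9 to Serpina11: agtggtgacattgcgATGATGGGGCCAGTG
On chromosome 1 (plus strand) the junction from Serpinb5 to Serpinb12 spans from 106876152 to 106946529, across 70376 bases. On chromosome 12 the break from Serpina3k to Serpina3m spans from 104342972 to 104391490, across 48517 bases. It lies inside a run of 100 bases that is identical in both genes, with 34 of them before the break and 66 after it, a run close to the read length. The stretch printed for this break lies within that run and occurs in each gene alone. A read of that stretch alone therefore cannot support the join. The other 3 junctions had a run of 0 to 1 identical bases.

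The join of Serpina3k, Serpina3m and Serpina3n carried most of the fragments given to Serpina3n in liver. That transcript of 10 exons and 3287 bases had 62794 of the 66050 liver fragments of Serpina3n in the splice junction design (95.1%), 88.4% in kidney, 45.1% in heart and 25.9% in the library labelled testes. In the brain libraries it had 2.21 to 11.2 fragments, at most 0.433% of the gene. In the liver library of the lncRNA design it had 0.07 of 308. The share of Serpina3n in liver that belongs to its neighbours was not tested. Without transcripts that hold exons of at least 2 protein-coding genes, the number of members highest in liver was still 23.

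The joins elsewhere in the clusters were smaller. The transcript from Serpinb5 to Serpinb12, of 9 exons, had 496 fragments in the library labelled testes, 86.8% of those given to Serpinb12 there, and at most 8.83 in another library. Serpina9 and Serpina11 are joined by 3 transcripts that share the junction from 103996508 to 103986509 on the minus strand of chromosome 12. All 3 also overlap exons of Gm28577, a processed transcript in GENCODE, as do annotated forms of each gene alone. The form with the inner start had 387 fragments in liver, 4.38% of Serpina11, and the 2 forms with the outer start had 180 and 113 in the library labelled testes, 60.9 and 38.2% of Serpina9 there. In whole brain the longer of these had 96.1 of 967 fragments of Serpina9, or 9.94%. A short transcript of 370 bases from Serpina1c to Serpina1b, which passes over Serpina1a and Serpina1d between them, had 3366 of the 4414 liver fragments of Serpina1b in the splice junction design (76.3%) and 0 of 15001 in the lncRNA design. It overlapped exons of Serpina1b by 113 bases and of Serpina1c by 29, so most of its bases lay in exons of neither gene.

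**Figure D4:**
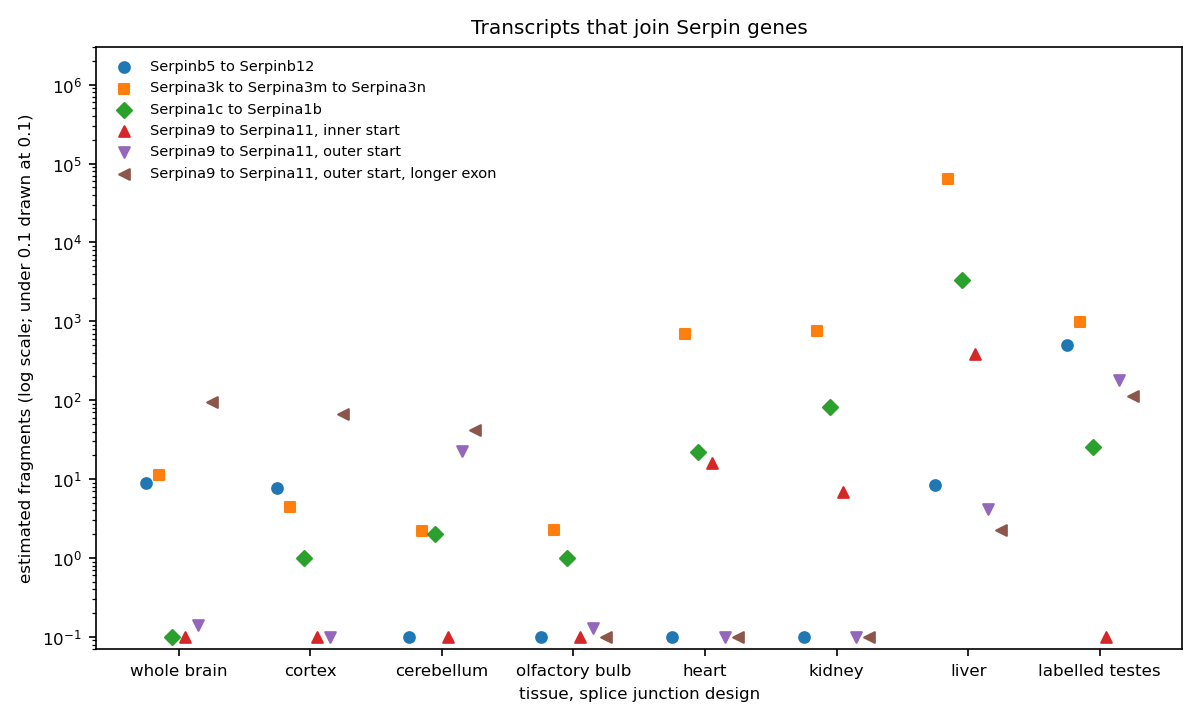
Estimated fragments (log scale, splice junction design) of the 6 transcripts that pass from 1 Serpin gene to another, by tissue. The join of Serpina3k, Serpina3m and Serpina3n reaches 62794 fragments in liver and 700 to 973 in the other nonbrain libraries, and the join of Serpinb5 and Serpinb12 reaches 496 in the library labelled testes.

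The level at which members were seen differed between the capture designs. Designs were compared with tissue as a factor (n = 8 pairs) in the same 19356 genes, of which 40.9% were higher in the lncRNA design and 51.7% lower, with a median log2 fold change of -1.09. Of the 39 members, 6 were higher in the lncRNA design, 31 lower and 2 not past the threshold, with a median of -3.58. The 5 largest were Serpine2 (3.82 ± 0.26, adjusted p = 2.48e-07, limma), Serpina1c (3.56 ± 1.08), Serpina1e (2.30 ± 0.70), Serpina1a (2.00 ± 0.70) and Serpina1d (1.87 ± 0.68). The 5 smallest were Serpinb1a (-6.72 ± 0.34, adjusted p = 3.29e-08), Serpina3n (-5.91 ± 0.29), Serpinb6b (-5.90 ± 0.37), Serpinb8 (-5.87 ± 0.40) and Serpina10 (-5.33 ± 0.74). Without tissue as a factor 1 member was higher and 24 lower, the former being Serpine2.

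**Figure D5:**
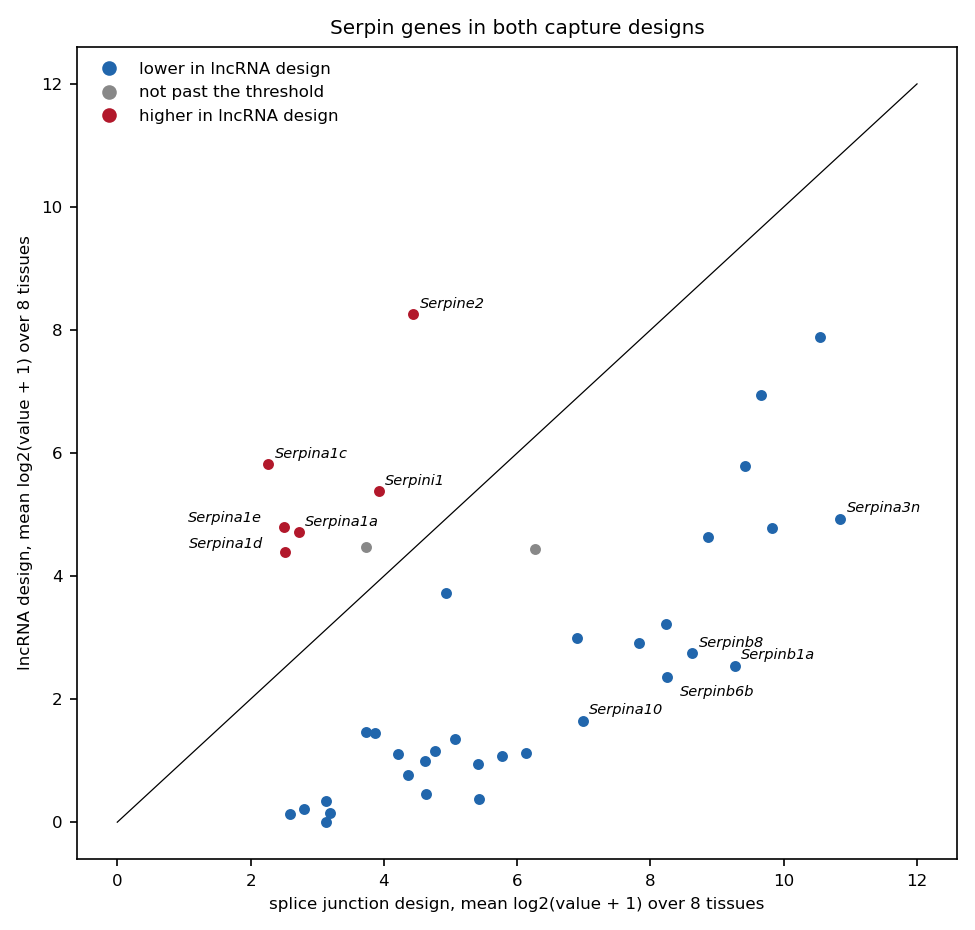
Mean log2(Cuffnorm value + 1) over the 8 tissues in the splice junction design (x axis) and the lncRNA design (y axis) for the 39 Serpin genes tested, with the line of equal values. Red points (6) above the line are Serpine2, Serpini1 and 4 of the Serpina1 copies, and blue points (31) below it are lower in the lncRNA design.

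The Serpina1 copies show how far the design moved a liver gene. In liver the lncRNA design gave 76032 fragments of Serpina1c, 15001 of Serpina1b, 13828 of Serpina1a, 11538 of Serpina1e and 8427 of Serpina1d, against 837, 4414, 1244, 796 and 679 in the splice junction design. In the lncRNA design liver was followed by kidney with 335 fragments of Serpina1a and 348 of Serpina1d, 1.59% and 2.71% of the liver value, and by the library labelled testes with 491 of Serpina1e. The order of the copies in liver thus differed between designs, and Serpina1b, which led in the splice junction design, did so with the short joining transcript. Without joining transcripts Serpina1b also passed the threshold as higher in the lncRNA design, which gave 7 such members. The brain libraries of either design had 0 to 2 fragments of each copy.

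Upstream of the Serpina1 copies the sequence is conserved. The promoter table of RefSeq (GRCm38.p6; 250 bases before the start and 50 after) held 61 promoters of 52 of the 61 genes. HNF1 factors, which drive liver genes, bind sites whose core reads GTTAAT. This core, searched on both strands, stood in 7 of 20 promoters of members highest in liver, all of them of Serpina1a to Serpina1e and Serpina7, in 5 of 41 promoters of other members and in 7.1% of all 32851 promoters. The 90 bases before the start of 3 genes follow, with the core in capitals, read 5′ to 3′ on the minus strand.
Serpina1a, chr12:103863620-103863709: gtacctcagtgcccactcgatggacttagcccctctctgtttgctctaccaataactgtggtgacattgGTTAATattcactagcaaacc
Serpina1e, chr12:103956898-103956987: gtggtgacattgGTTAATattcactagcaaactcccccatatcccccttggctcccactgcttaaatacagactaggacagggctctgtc
Serpina7, chrX:139085220-139085309: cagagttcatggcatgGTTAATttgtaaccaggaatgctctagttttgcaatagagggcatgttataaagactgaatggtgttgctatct
A run of 59 bases around the core was identical in all 5 Serpina1 promoters, and the core began between positions -78 and -16 relative to their starts. These copies arose by duplication, so they are not independent examples, and a match of letters shows no binding.

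The remaining members were near or below detection. Of the 61 genes, 46 had at least 10 fragments in some library and 10 had fewer than 3 in every library. Those 10 were 1 clade a gene (Serpina3a) and 9 clade b genes, among them Serpinb9d, Serpinb9e, Serpinb9f, Serpinb9g, Serpinb3d and Serpinb13 with 0 in all libraries. Stretches of read length shared with another gene made up 51.6% of Serpinb9f and 38.1% of Serpinb9g. Serpina5, the protein C inhibitor, had 60 fragments in liver, 14 in the library labelled testes and 1 in kidney. At this depth, and with 1 library for each tissue and design, lower levels of these genes could not be detected.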

How the data were processed

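By the study's methods and the submitters' processing notes, the authors mapped reads with TopHat2 (GRCm38), built transcripts per library using Cufflinks 2.2.1 and the GENCODE M4 annotation, combined them and estimated abundance using Cuffnorm 2.2.1. The probe targets of the splice junction design left out the regions most abundant in brain data. The deposited signal values are Cuffnorm's estimated fragments for each transcript, divided by the authors by a factor per library, with replicates not pooled. The deposited assembly gave the exons.

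Transcripts were assigned to GENCODE M21 genes, and division by the value of 1 fragment gave fragments. Sums over the assembly's gene models of up to 20 fragments were whole within 0.1 in 100% of cases, while estimates that split a model between GENCODE genes need not be whole. Libraries held 8930235 to 43889288 fragments, and their counting error limits the low values. Tests used limma 3.58.1 in R 4.3.3 on log2(value + 1), keeping genes whose values averaged 10 or more, with Benjamini-Hochberg adjustment and a threshold of 0.05, after a check on simulated data. Brain and nonbrain tissues were compared on the mean of both designs, and the designs with tissue as a factor. Alternatives were other pseudocounts, no filter, other scalings, joining transcripts left out, each tissue left out, each design alone and no tissue factor. The members and lists were chosen with earlier results of these data known. Genes were named by rule, namely the 3 highest members per tissue, the highest of each clade, up to 10 largest changes in each direction, joined genes, up to 6 proteases in each direction, and the 5 largest and 5 smallest differences between designs. A member counted in the totals is not reported here. Further genes were named after their values were seen. FPKM used fragments outside the spike-ins. Python 3.11.15, NumPy 2.4.6, pandas 2.3.3 and Biopython 1.88 were used.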

Additional observations from a re-analysis of the deposited data

Results flagged for a closer look

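On the scale of the test, 70 groups of 4 tissues were examined for a tissue that stood apart by Dixon's test, and 18 had such a tissue. Chance flags about 1 in 20 groups, but some genes passed the filter on low values only through the tissue that then stood apart, so the number flagged cannot be read against that rate. Liver stood above heart, kidney and the tissue labelled testes for Serpinc1 (gap over range 0.857), Serpina7 (0.886), Serpina12 (0.922), Serpina3k (0.881), Serpina10 (0.866) and Serpina1b (0.861). Kidney stood above the others for Serpina1f (0.967). The tissue labelled testes stood above them for Serpinb5 (0.917), Serpinb6c (0.837), Serpinb11 (0.987), Serpinb12 (0.865) and Serpinb1b (1.0). For Serpinb1b this rests on 11 fragments in the splice junction design against 0 in heart, kidney and liver.

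Among brain tissues, cerebellum was the lowest for Serpini1 (0.887), at 6.72 against 7.63 to 7.75 in mean log2(value + 1), and for Serpinf2 (0.86), and cortex was the lowest for Serpinb6c (0.843). The levels of Serpinf2 were near the floor, at 0.41 in cerebellum against 1.4 to 1.56. Levels near 0 gave a value of 1.0 for Serpina1f in olfactory bulb, Serpina1e in cerebellum and Serpina1c in whole brain, where 1 to 4 fragments set the tissue apart from 0 in the others.

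For Serpinc1 the difference between designs had opposite directions in the groups. The lncRNA design exceeded the splice junction design by 0.41 to 1.79 on the log2 scale in the 4 brain tissues, where the gene had 0 to 16 fragments, and was below it by -5.28 to -3.73 in the 4 nonbrain tissues. The means differed by 6.00 (brain minus nonbrain), and the difference was not tested.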

How the results depend on the processing

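The number of members past the threshold in the comparison of brain with nonbrain tissues (20: 3 higher, 17 lower) was 10 (1 higher, 9 lower) in the lncRNA design alone. With a tissue left out it ranged from 12 to 21, with 1 to 2 higher and 11 to 20 lower. The lowest totals came without whole brain (12), cerebellum (13) or cortex (13). All 17 lower calls were kept without liver, without kidney and without the tissue labelled testes. The number higher fell to 1 without whole brain, heart, kidney or liver. In the comparison of designs, the fit with no tissue factor (no replicate block) gave 1 member higher instead of 6. Of 44 members 8 were highest in a brain tissue, against 5 of 37 at a minimum value of 100, 4 of 32 in the lncRNA design and 11 of 44 with fragments scaled to those outside the spike-ins. The tissue labelled testes went from 7 of 44 to 1 of 32 in the lncRNA design. The causes were not tested. No called fold change of a named member changed its direction: with a tissue left out, 36 fits of a member lost the call, 8 gained it and 268 kept their side. Depth limits the low members, and the presence of hepatocyte markers in the other nonbrain libraries limits statements on heart, kidney and the tissue labelled testes.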
